A study of Homo sapiens with 21 samples.

Results

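The genes described here are 10 of the 62699 genes counted in human stem cell-derived islets: CNMD, VSIG1, TCN1, PSAPL1, RARRES2, NOX4, NMNAT3, PRDM14, RIPPLY3 and SLC24A4. They were chosen by their difference between libraries made with an ISL1 vector and libraries made with a control vector, as genes much higher with the ISL1 vector in at least 1 genotype. The rule names no genotype, so the libraries of all 4 genotypes and both vectors entered it. The levels of these 10 genes and their differences are therefore a description of the choice, and no test is given for them. All 10 genes passed the filter on low counts, and the lowest count of any of them in any library was 12, for CNMD in WT with BFP.

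The cells were islets differentiated in culture from H1, an established human embryonic stem cell line. They were dissociated and transduced on day 11, either with a lentivirus for ISL1 and the blue fluorescent protein BFP (ISL1-IRES2-BFP) or with one for BFP without ISL1. Cells positive for BFP were taken by flow sorting on day 18, so every library comes from transduced cells. The 8 groups, all from H1 at day 18, were WT, ISL1-/-, PAX6-/- and PDX1-/- cells, each with the ISL1 vector and with the BFP vector. Both WT groups and the ISL1 group of PDX1-/- have 2 libraries each, and the other 5 groups have 3. Neither the promoter of the vector nor the number of clones behind each knockout is given in the sources used here. Nothing in the labels says that libraries of a group came from separate differentiations, so p-values measure only the spread between these libraries, which may be technical.

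ISL1 is a LIM-homeodomain transcription factor that islet endocrine cells need to mature, and it works in complexes with LDB and other LIM proteins. PAX6 and PDX1 are homeodomain factors of the same endocrine programme, with PDX1 also needed earlier for the pancreas itself. The 10 genes belong to no single pathway. CNMD, RARRES2 and TCN1 encode secreted or shed proteins, VSIG1 encodes a cell adhesion protein, and PSAPL1 is a relative of the gene for the lysosomal saposin precursor. NOX4 and NMNAT3 encode enzymes, SLC24A4 a calcium transporter, and PRDM14 and RIPPLY3 nuclear regulators.

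RefSeq's promoter table (build GRCh38.p14, from 250 bases before to 50 after each gene start) held 10 windows for 7 of these genes. The windows were searched on both strands for CTAATGG and CTAATTG, the homeodomain core words described for ISL1. Of all 35116 windows in the table, 1204 (3.43%) hold a match, and of the 10 windows only that of CNMD does. The 250 bases before the start are shown for CNMD, which had the largest difference between the vectors, and for TCN1 and the adjacent gene CBLIF, which were both higher with the ISL1 vector. All 3 lie on the minus strand and are printed 5′ to 3′ along the gene, with the matched word in capitals: CNMD at chr13:52739821-52740070, TCN1 at chr11:59866488-59866737 and CBLIF at chr11:59845500-59845749.
CNMD: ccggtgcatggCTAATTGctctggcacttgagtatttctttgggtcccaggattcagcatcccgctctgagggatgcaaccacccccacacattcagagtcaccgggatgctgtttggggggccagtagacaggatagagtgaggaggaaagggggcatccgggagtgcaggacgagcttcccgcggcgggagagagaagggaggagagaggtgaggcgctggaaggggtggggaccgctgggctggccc
TCN1: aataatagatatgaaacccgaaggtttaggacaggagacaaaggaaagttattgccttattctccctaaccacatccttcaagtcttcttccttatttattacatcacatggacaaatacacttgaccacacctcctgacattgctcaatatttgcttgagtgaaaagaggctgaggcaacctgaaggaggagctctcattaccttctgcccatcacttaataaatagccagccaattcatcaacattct
CBLIF: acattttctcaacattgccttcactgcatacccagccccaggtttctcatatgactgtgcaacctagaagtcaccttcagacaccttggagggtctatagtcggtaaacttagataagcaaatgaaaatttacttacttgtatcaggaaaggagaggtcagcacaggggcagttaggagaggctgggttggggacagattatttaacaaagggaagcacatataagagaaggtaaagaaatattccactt
The CNMD match is the word CTAATTG, which starts 239 bases before the gene start. A match is a description of the letters and is no evidence of a bound site.

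Libraries held from 36.8 to 60.2 M counts (M, 1e6) with a median of 50.4 M, and levels are given as CPM, counts per M of the library size scaled by TMM. The mitochondrial share of counts was from 1.28 to 1.93% in 19 libraries, 3.16% in PAX6-/- with ISL1 replicate 3 and 3.84% in PDX1-/- with ISL1 replicate 4. The islet label was checked with 11 endocrine markers. The general endocrine marker CHGA was from 10301 to 48918 CPM, while the hormones ranged more widely, INS from 87.5 to 25612, GCG from 15.7 to 106084 and SST from 0.390 to 343 CPM. Every library also held liver markers, with a sum of 8 genes from 5297 to 40185 CPM, among them AFP from 948 to 5417 CPM. ISL1 itself did not separate the vector groups: it was from 71.6 to 96.8 CPM in ISL1-/- with ISL1, from 73.7 to 82.4 CPM in ISL1-/- with BFP, 361 and 337 CPM in WT with ISL1, and 306 and 519 CPM in WT with BFP. Its log2 difference, ISL1-labelled over BFP-labelled, was -0.24 (SE 0.43) in WT and 0.13 (SE 0.35) in ISL1-/-, with 0.16 (SE 0.35) for PAX6-/- and 0.56 (SE 0.39) for PDX1-/-. Groups are therefore called ISL1-labelled and BFP-labelled, and every direction below rests on the labels.

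**Figure D1:**
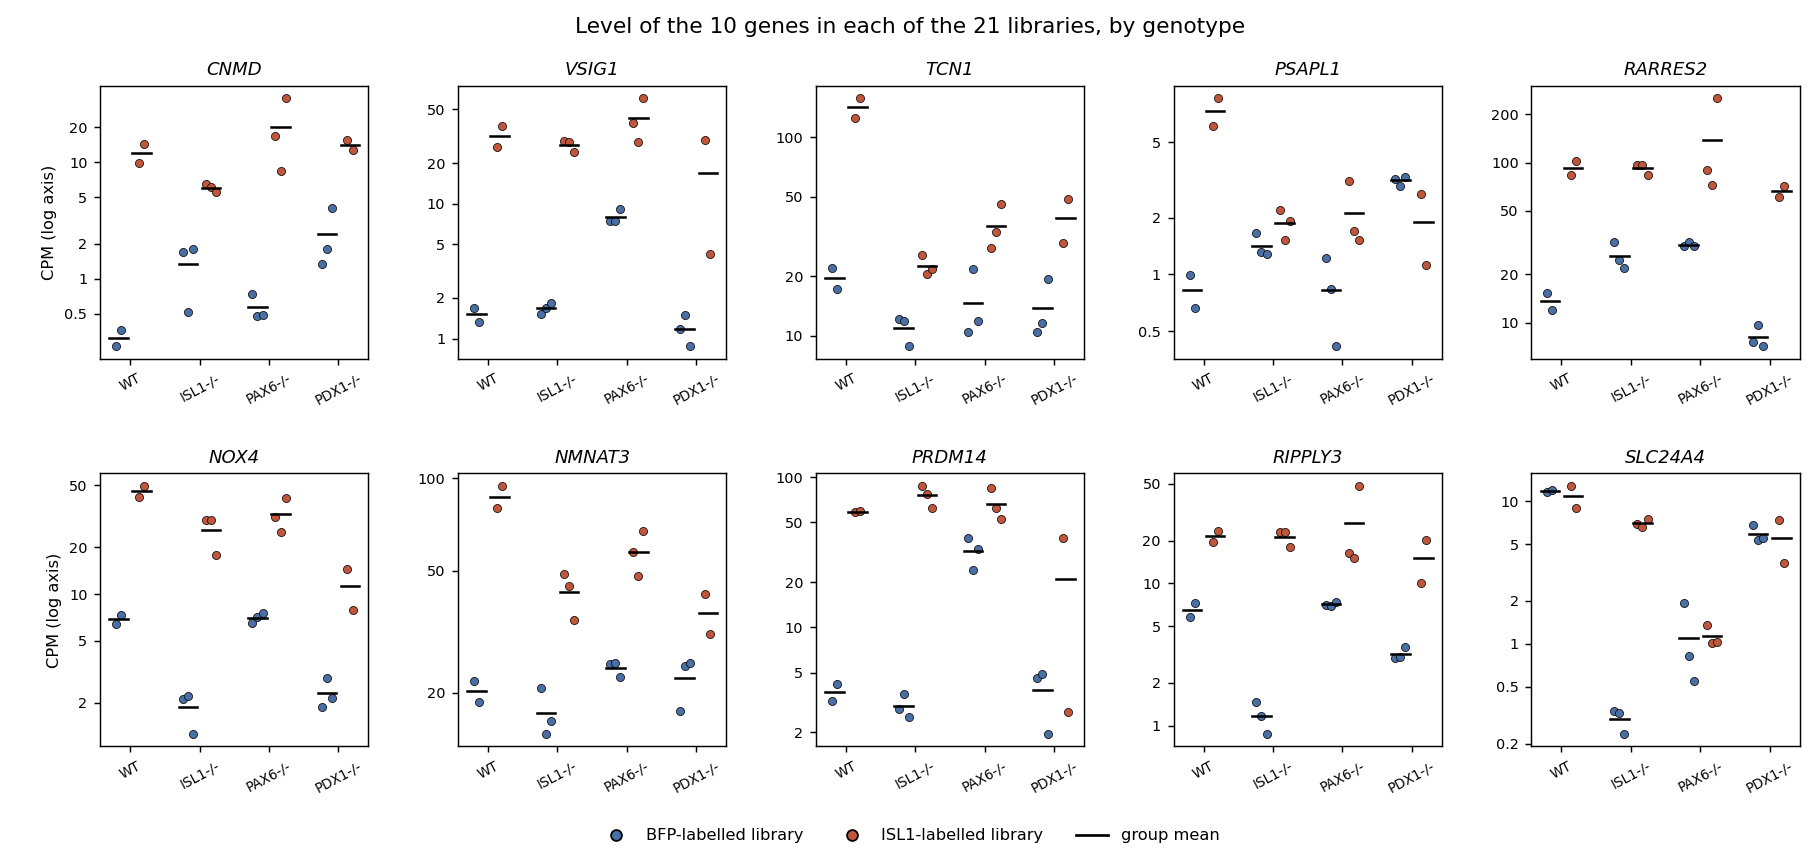
CPM (log axis) of the 10 genes in each of the 21 libraries, by genotype on the horizontal axis, with a point per library and a bar at the group mean. In WT, 9 of the 10 genes have both ISL1-labelled libraries above both BFP-labelled ones, and SLC24A4 is high in both vector groups of WT and lowest in ISL1-/- with BFP.

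Across genotypes, 9 of the 10 genes had every ISL1-labelled library above every BFP-labelled one in WT, where 20.8% of the 25884 genes tested did. The count was 9 in ISL1-/- (13.0% of all genes), 9 in PAX6-/- (7.57%) and 7 in PDX1-/- (16.3%), and since the rule used this contrast nothing is read from these shares. The median log2 difference of the 10 genes was 2.81 in WT and 2.98 in ISL1-/-, with 1.63 for PAX6-/- and 2.26 for PDX1-/-, beside medians over all genes of 0.00, 0.03, 0.11 and 0.13. The exceptions were SLC24A4 in WT, PAX6-/- and PDX1-/-, PSAPL1 in ISL1-/- and PDX1-/-, and PRDM14 in PDX1-/-. Because sorted cells were pooled in bulk libraries, more cells of a type and more RNA per cell cannot be told apart.

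Of 9 lists of cell type markers, the sums of several separated by vector label as well. In WT, with 2 libraries in each vector group, 20.8% of all genes were higher with ISL1 without overlap. How often sums of other genes separate was not counted, so nothing is read from the number of lists. In WT, the summed level of mesenchyme markers was higher with ISL1 (220 to 1252 CPM in BFP-labelled and 1707 to 2011 CPM in ISL1-labelled libraries), and so was that of pluripotent and germ cell markers. In WT, 4 lists were lower without overlap. They were islet endocrine markers (66024 to 84661 CPM with BFP, 56079 to 64554 with ISL1) and liver (18690 to 20058 and 13068 to 14134). Intestine (572 to 622 and 391 to 395) and, narrowly, pancreatic duct and acinar (1408 to 1419 and 1377 to 1382) were the others. In ISL1-/-, stomach markers were higher (60.2 to 95.3 and 101 to 120 CPM), as were pluripotent and germ cell markers, and intestine was lower (320 to 370 and 273 to 307 CPM). In PAX6-/-, stomach alone was apart, by a narrow gap (62.2 to 73.8 and 74.6 to 209 CPM). The highest of these sums was that of ISL1-labelled replicate 3, where SOX2 alone held 142 CPM. In PDX1-/-, the sums of stomach and liver markers were higher with ISL1. So were those of intestine (251 to 304 and 392 to 868 CPM) and pancreatic duct and acinar (643 to 730 and 1525 to 3183). Not every gene followed its list. KRT19 made up most of the duct and acinar sum, at 1033 and 2906 CPM in ISL1-labelled replicates 2 and 4. SOX9 was 17.6 CPM in replicate 4 (47.7 to 65.4 with BFP) and CFTR 15.0 CPM in replicate 2 (25.2 to 50.2 with BFP). VIL1 of the intestine list was lower in both, at 159 and 125 CPM against 172 to 195 CPM with BFP. No marker of any list was at 0 in all libraries, but MUC5AC and DPPA5 had at most 1 count in any library and GKN1 at most 2. Only 4 or 5 of the 12 stomach markers had a mean over 1 CPM in a group. Of the 8 pluripotent and germ cell markers, 1 or 2 did. The part of these cell types in the values of the 10 genes was not tested.

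**Figure D2:**
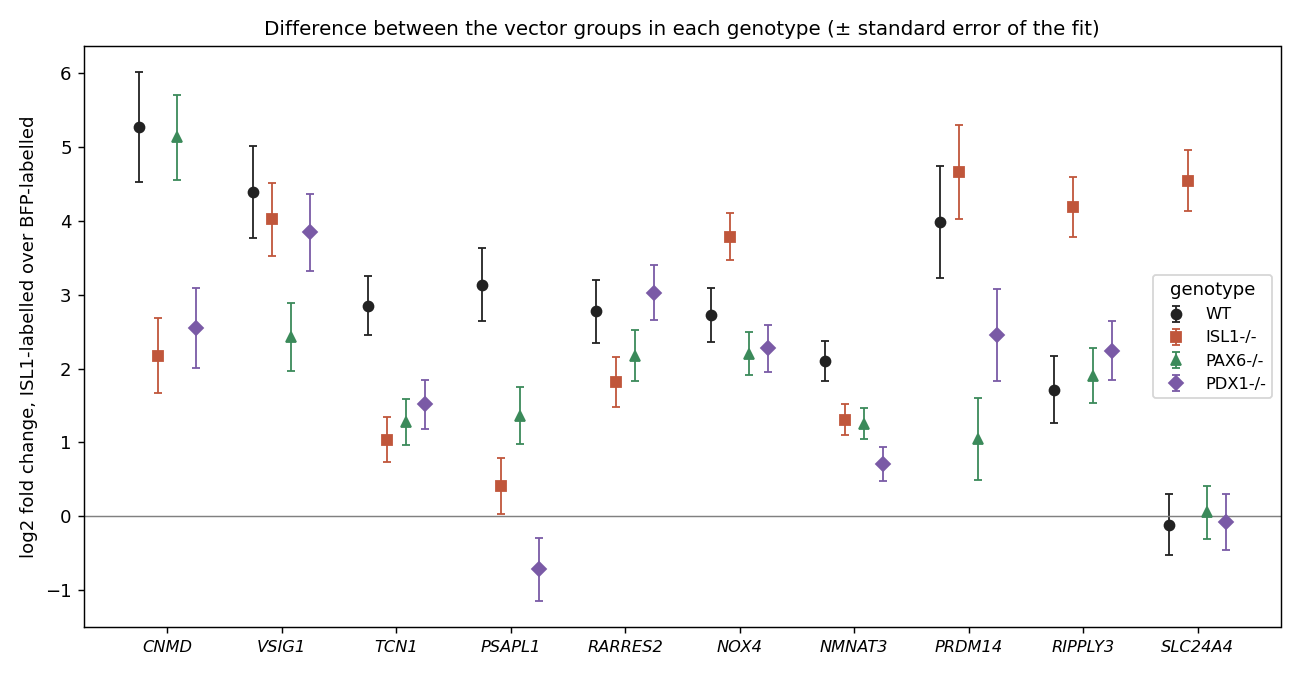
Log2 fold change of ISL1-labelled over BFP-labelled libraries for each gene in the 4 genotypes, with bars of 1 SE of the fit. CNMD reaches 5.27 in WT and 5.13 in PAX6-/-, while SLC24A4 is at 4.54 in ISL1-/- and near 0 in the other genotypes.

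CNMD encodes chondromodulin, a glycoprotein of cartilage matrix that inhibits the growth of blood vessels. It was 0.264 and 0.363 CPM in the WT BFP-labelled libraries and 9.76 and 14.4 CPM in the ISL1-labelled ones, a 38.7-fold difference (log2 5.27, SE 0.74). In PAX6-/-, it was 0.747, 0.482 and 0.492 CPM with BFP and 16.8, 8.41 and 35.3 CPM with ISL1, a log2 difference of 5.13 (SE 0.58). In both genotypes the groups are far apart. In ISL1-/-, it was 1.68, 0.520 and 1.80 CPM with BFP and 6.47, 6.08 and 5.58 CPM with ISL1 (log2 2.17, SE 0.51). In PDX1-/-, it was 1.35, 1.80 and 4.04 CPM with BFP and 15.4 and 12.6 CPM with ISL1 (log2 2.55, SE 0.54). The smaller differences of ISL1-/- and PDX1-/- go with higher BFP-labelled levels, whose mean was 1.34 and 2.40 CPM against 0.313 CPM in WT. In ISL1-/- the ISL1-labelled level was also the lowest of such groups. Its mean was 6.04 CPM, against 12.1 CPM in WT, 20.2 CPM in PAX6-/- and 14.0 CPM in PDX1-/-. The summed level of 8 cartilage markers overlapped between the vector groups of every genotype. It was from 1373 to 1889 CPM in WT with BFP and from 1155 to 1450 CPM in WT with ISL1. COL2A1 (median 1251 CPM over all libraries) made up most of this sum, and ACAN was at most 2.35 CPM, so the sum says little about the other markers. The markers with a group mean over 1 CPM were 3 with BFP and 5 with ISL1 in WT. They were 4 and 5 in ISL1-/-, 5 and 6 in PAX6-/-, and 3 and 5 in PDX1-/-. The part of cartilage cells in the CNMD values was not tested.

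RARRES2 encodes chemerin, a secreted chemoattractant and adipokine that is made as an inactive precursor. It was 15.3 and 11.9 CPM in WT with BFP and 83.5 and 102 CPM in WT with ISL1, a 6.84-fold difference (log2 2.77, SE 0.43). In ISL1-/-, the levels were 31.7, 24.7 and 21.8 CPM with BFP and 96.2, 96.9 and 83.2 CPM with ISL1 (log2 1.82, SE 0.34). In PDX1-/-, they were 7.58, 9.63 and 7.10 CPM with BFP and 60.9 and 71.3 CPM with ISL1 (log2 3.03, SE 0.38). The groups did not overlap in any genotype, and the ISL1-labelled libraries of WT and ISL1-/- lay close together. In PAX6-/-, RARRES2 was 30.0, 31.7 and 30.1 CPM with BFP and 89.8, 72.2 and 252 CPM with ISL1, and the log2 difference of 2.17 (SE 0.34) was 1.41 without ISL1-labelled replicate 3.

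TCN1 encodes haptocorrin, a secreted protein that binds vitamin B12 and protects it in the stomach. It was 21.9 and 17.1 CPM in WT with BFP and 125 and 157 CPM in WT with ISL1, a 7.23-fold difference (log2 2.85, SE 0.40). The WT ISL1-labelled group was the highest of the 8 groups and did not overlap with any other. In ISL1-/-, TCN1 was 12.1, 11.9 and 8.85 CPM with BFP and 25.4, 20.4 and 21.6 CPM with ISL1 (log2 1.04, SE 0.31). In PAX6-/-, it was 10.4, 21.7 and 11.9 CPM with BFP and 27.7, 33.3 and 45.8 CPM with ISL1 (log2 1.28, SE 0.31). PDX1-/- libraries held 10.4, 11.5 and 19.3 CPM with BFP and 29.4 and 49.1 CPM with ISL1 (log2 1.51, SE 0.33). All 3 knockouts thus had TCN1 higher in the ISL1-labelled libraries without overlap, at levels well under those of WT.

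VSIG1 encodes an immunoglobulin-domain junction protein best known from the surface epithelium of the stomach. VSIG1 was 1.69 and 1.33 CPM in WT with BFP and 26.1 and 37.8 CPM in WT with ISL1, a 21.1-fold difference (log2 4.40, SE 0.63). In ISL1-/-, it was 1.52, 1.70 and 1.82 CPM with BFP and 29.4, 28.5 and 24.1 CPM with ISL1, a 16.2-fold difference (log2 4.02, SE 0.50). The BFP-labelled libraries of PAX6-/- started from a higher level, 7.49, 7.43 and 9.17 CPM, and the ISL1-labelled ones were at 40.0, 28.8 and 60.6 CPM (log2 2.42, SE 0.46). The ISL1-labelled groups of WT, ISL1-/- and PAX6-/- overlapped in their range, so the smaller difference in PAX6-/- came with a higher starting level and not with a lower end level. In PDX1-/-, VSIG1 was 1.18, 1.48 and 0.874 CPM with BFP and 29.8 and 4.24 CPM in ISL1-labelled replicates 2 and 4 (log2 3.85, SE 0.52). Without replicate 2 the PDX1-/- log2 difference was 1.83.

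PSAPL1 is named for its likeness to prosaposin, the precursor of the saposins that help lysosomal enzymes break down sphingolipids. It was 0.989 and 0.665 CPM in WT with BFP and 6.13 and 8.57 CPM in WT with ISL1, an 8.81-fold difference (log2 3.14, SE 0.50). In ISL1-/-, the groups overlapped at 1.66, 1.32 and 1.28 CPM with BFP and 2.19, 1.53 and 1.93 CPM with ISL1 (log2 0.41, SE 0.38). In PAX6-/-, PSAPL1 was 1.22, 0.839 and 0.416 CPM with BFP and 3.14, 1.70 and 1.53 CPM with ISL1 (log2 1.36, SE 0.39). In PDX1-/- it went the other way, at 3.22, 2.95 and 3.28 CPM with BFP and 2.66 and 1.13 CPM in ISL1-labelled replicates 2 and 4 (log2 -0.72, SE 0.43). This difference was -1.49 without replicate 2 and -0.20 with the replicate number as a block. PSAPL1 was the only one of the 10 genes with every ISL1-labelled library under every BFP-labelled one in a genotype. Its counts are low, from 22 to 411, and it lies within the gene SORCS2 on the opposite strand of chromosome 4 (PSAPL1 at chr4:7430285-7434930, SORCS2 at chr4:7192538-7742836), which held 139 to 3736 counts. The strand setting of the counting is not given in the sources used here, so reads of SORCS2 introns and of PSAPL1 cannot be told apart. SORCS2 had group means of 7.41 CPM in WT with BFP and 10.1 CPM in WT with ISL1, and of 55.2 and 11.0 CPM in PDX1-/-. In ISL1-/-, the means of SORCS2 were 45.7 CPM with BFP and 17.2 CPM with ISL1, while those of PSAPL1 were 1.42 and 1.88 CPM.

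NOX4 encodes an NADPH oxidase that releases hydrogen peroxide and needs CYBA as its membrane partner. It was 6.46 and 7.35 CPM in WT with BFP and 42.1 and 49.5 CPM in WT with ISL1, a 6.64-fold difference (log2 2.73, SE 0.37). In ISL1-/-, it was 2.12, 2.22 and 1.26 CPM with BFP and 29.9, 29.7 and 17.7 CPM with ISL1, a 13.8-fold difference (log2 3.79, SE 0.32). In PAX6-/-, it was 6.56, 7.07 and 7.57 CPM with BFP and 31.1, 25.1 and 41.4 CPM with ISL1 (log2 2.20, SE 0.29). No genotype had an overlap between its vector groups for NOX4. The levels in PDX1-/- were 1.87, 2.89 and 2.16 CPM with BFP and 14.5 and 7.88 CPM with ISL1 (log2 2.28, SE 0.32), the lowest of the ISL1-labelled groups.

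NMNAT3 encodes the mitochondrial enzyme that joins a nicotinamide mononucleotide to ATP to make NAD. It was 21.9 and 18.7 CPM in WT with BFP and 79.9 and 94.4 CPM in WT with ISL1, a 4.29-fold difference (log2 2.10, SE 0.27). In ISL1-/-, it was 20.7, 14.7 and 16.1 CPM with BFP and 48.7, 44.4 and 34.5 CPM with ISL1 (log2 1.31, SE 0.21). In PAX6-/-, it was 24.8, 25.1 and 22.5 CPM with BFP and 57.6, 48.1 and 67.2 CPM with ISL1 (log2 1.25, SE 0.21). PDX1-/- libraries were at 17.4, 24.4 and 25 CPM with BFP and 42.0 and 30.9 CPM with ISL1 (log2 0.71, SE 0.23). COPB2-DT overlaps NMNAT3 on the opposite strand with 779 to 2602 counts per library, and without a stated strand setting reads of the overlap cannot be told apart. Its group means were 37.9 CPM with BFP and 35.7 CPM with ISL1 in WT, and 17.4 and 51.2 CPM in PDX1-/-. The 4 BFP-labelled groups of NMNAT3 were within 17.2 to 24.1 CPM on average, while the 4 ISL1-labelled groups were within 36.5 to 87.1 CPM.

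PRDM14 encodes a PR-domain regulator of transcription that acts in pluripotent cells and primordial germ cells. It was 3.23 and 4.20 CPM in WT with BFP and 58.4 and 59.2 CPM in WT with ISL1, a 15.8-fold difference (log2 3.98, SE 0.76). The ISL1-/- libraries held 2.85, 3.59 and 2.52 CPM with BFP and 87.6, 76.9 and 62.8 CPM with ISL1, a 25.4-fold difference (log2 4.66, SE 0.64). In PAX6-/-, the BFP-labelled libraries already held 39.2, 24.2 and 33.3 CPM, and the ISL1-labelled ones held 84.5, 62.7 and 52.5 CPM (log2 1.05, SE 0.55). The ISL1-labelled libraries of these 3 genotypes lay between 52.5 and 87.6 CPM, although the BFP-labelled levels differed. In PDX1-/-, it was 4.59, 4.91 and 1.94 CPM with BFP and 39.1 and 2.73 CPM in ISL1-labelled replicates 2 and 4, so that the groups overlapped. The PDX1-/- log2 difference of 2.46 (SE 0.62) was -0.50 without replicate 2. Of 8 pluripotent and germ cell markers, NANOG was at most 0.139 CPM and POU5F1 at most 0.504 CPM in any library, and LIN28A, the highest of them, was from 3.60 to 20.2 CPM. The summed level of the 8 moved with PRDM14 in part: BFP-labelled libraries of ISL1-/- held 5.61 to 8.12 CPM and ISL1-labelled ones 13.8 to 18.4 CPM, while those of WT held 12.7 to 13.0 and 15.8 to 20.2 CPM. Its ranges overlapped in PAX6-/- (9.98 to 14.9 and 14.6 to 21.7 CPM) and in PDX1-/- (6.54 to 10.5 and 4.67 to 7.65 CPM), and its part in the PRDM14 values was not tested.

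RIPPLY3 encodes an adaptor that binds T-box factors and turns them into repressors together with TLE proteins. It was 5.76 and 7.28 CPM in WT with BFP and 19.5 and 23.2 CPM in WT with ISL1 (log2 1.71, SE 0.45). In ISL1-/-, it was 1.47, 1.16 and 0.871 CPM with BFP and 23, 22.9 and 18.0 CPM with ISL1, an 18.2-fold difference (log2 4.19, SE 0.41). The ISL1-labelled groups of WT and ISL1-/- overlapped, with means of 21.4 and 21.3 CPM, while the BFP-labelled groups had means of 6.52 and 1.17 CPM. In PAX6-/-, RIPPLY3 was 6.99, 6.93 and 7.43 CPM with BFP and 16.4, 15.0 and 48.5 CPM with ISL1, and the log2 difference of 1.90 (SE 0.37) was 1.14 without ISL1-labelled replicate 3. In PDX1-/-, it was 2.99, 3.04 and 3.56 CPM with BFP and 10.1 and 20.2 CPM with ISL1 (log2 2.24, SE 0.40), and 1.66 without ISL1-labelled replicate 4.

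SLC24A4 encodes NCKX4, an exchanger that moves calcium out of cells in return for sodium, with potassium carried alongside. It was 11.5 and 12.1 CPM in WT with BFP and 12.8 and 8.98 CPM in WT with ISL1 (log2 -0.11, SE 0.42). In ISL1-/-, it was 0.336, 0.329 and 0.233 CPM with BFP, from 15 to 19 counts, and 6.97, 6.57 and 7.53 CPM with ISL1, a 23.3-fold difference (log2 4.54, SE 0.41). The ISL1-labelled libraries of ISL1-/- were under all 4 WT libraries and above both PAX6-/- groups. In PAX6-/-, it was 1.93, 0.821 and 0.549 CPM with BFP and 1.36, 1.02 and 1.03 CPM with ISL1 (log2 0.05, SE 0.36). SLC24A4 in PDX1-/- was 6.79, 5.38 and 5.51 CPM with BFP and 7.41 and 3.70 CPM with ISL1 (log2 -0.08, SE 0.38). SLC24A4 thus had vector groups that were apart in ISL1-/- and overlapped in the other 3 genotypes, although single libraries set some of these overlaps. Without PAX6-/- with BFP replicate 1 the PAX6-/- log2 difference of SLC24A4 was 0.73, and its vector groups did not overlap there. They did not overlap either in WT without ISL1-labelled replicate 2, where its log2 difference was 0.12. In PDX1-/- it was -0.68 without ISL1-labelled replicate 2. Its order over the groups ran from WT with BFP (mean 11.8 CPM) and WT with ISL1 (10.9 CPM), which overlapped, to ISL1-/- with ISL1 (7.02 CPM) and both PDX1-/- groups (5.89 and 5.56 CPM), which overlapped in turn, then both PAX6-/- groups (1.14 and 1.10 CPM) and ISL1-/- with BFP (0.300 CPM).

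Genotypes were also compared within the BFP-labelled libraries, as log2 differences with the SE of the edgeR fit. The BFP-labelled libraries of every genotype entered the choice of the genes, so these differences too are a description without a test. For scale, edgeR's quasi-likelihood test with Benjamini-Hochberg adjustment called (adjusted p under 0.05) 5.59% of all 25884 genes for ISL1-/- against WT, 5.51% for PAX6-/- against WT, 9.68% for PDX1-/- against WT, 2.46% for ISL1-/- against PAX6-/-, 5.07% for ISL1-/- against PDX1-/- and 3.04% for PAX6-/- against PDX1-/-, and nothing about the 10 genes is read from these shares.

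PRDM14 without the ISL1 vector was 8.69-fold higher in PAX6-/- than in WT (log2 3.12, SE 0.71) and 8.43-fold higher than in PDX1-/- (log2 3.08, SE 0.60). VSIG1 was also highest in PAX6-/-, 5.29-fold over WT (log2 2.40, SE 0.56). NOX4 was lower in ISL1-/- than in PAX6-/- (log2 -1.92, SE 0.30) and higher in PAX6-/- than in PDX1-/- (log2 1.61, SE 0.29). RARRES2 was lowest in PDX1-/-, under ISL1-/- (log2 1.69 for ISL1-/- over PDX1-/-, SE 0.34) and under PAX6-/- (log2 1.92, SE 0.34). PSAPL1 was lower in PAX6-/- than in PDX1-/- (log2 -1.93, SE 0.39), and so was SLC24A4 (log2 -2.42, SE 0.37). In each of these comparisons the groups did not overlap. They are not all of the differences of this size. Others without overlap were SLC24A4 in PAX6-/- against WT (log2 -3.43, SE 0.40) and, in PDX1-/- against WT, CNMD (log2 2.94, SE 0.67) and PSAPL1 (log2 1.92, SE 0.46). The share of all genes that separate between these groups was not counted, so nothing is read from the separation. TCN1 and NMNAT3 differed least between genotypes, by at most 0.83 and 0.49 on the log2 scale.

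With BFP, SLC24A4 was 39.2-fold lower in ISL1-/- than in WT (log2 -5.29, SE 0.44) and RIPPLY3 5.58-fold (log2 -2.48, SE 0.41). NOX4 was 3.70-fold (log2 -1.89, SE 0.32) and TCN1 1.78-fold lower (log2 -0.83, SE 0.34). CNMD (log2 2.10, SE 0.66), RARRES2 (log2 0.94, SE 0.38) and PSAPL1 (log2 0.77, SE 0.44) were higher in ISL1-/-. The groups of these genes did not overlap. How often all genes separate between these libraries was not counted, so nothing is read from it. The groups of VSIG1 (log2 0.15, SE 0.52), NMNAT3 (log2 -0.24, SE 0.23) and PRDM14 (log2 -0.31, SE 0.63) overlapped.

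**Figure D3:**
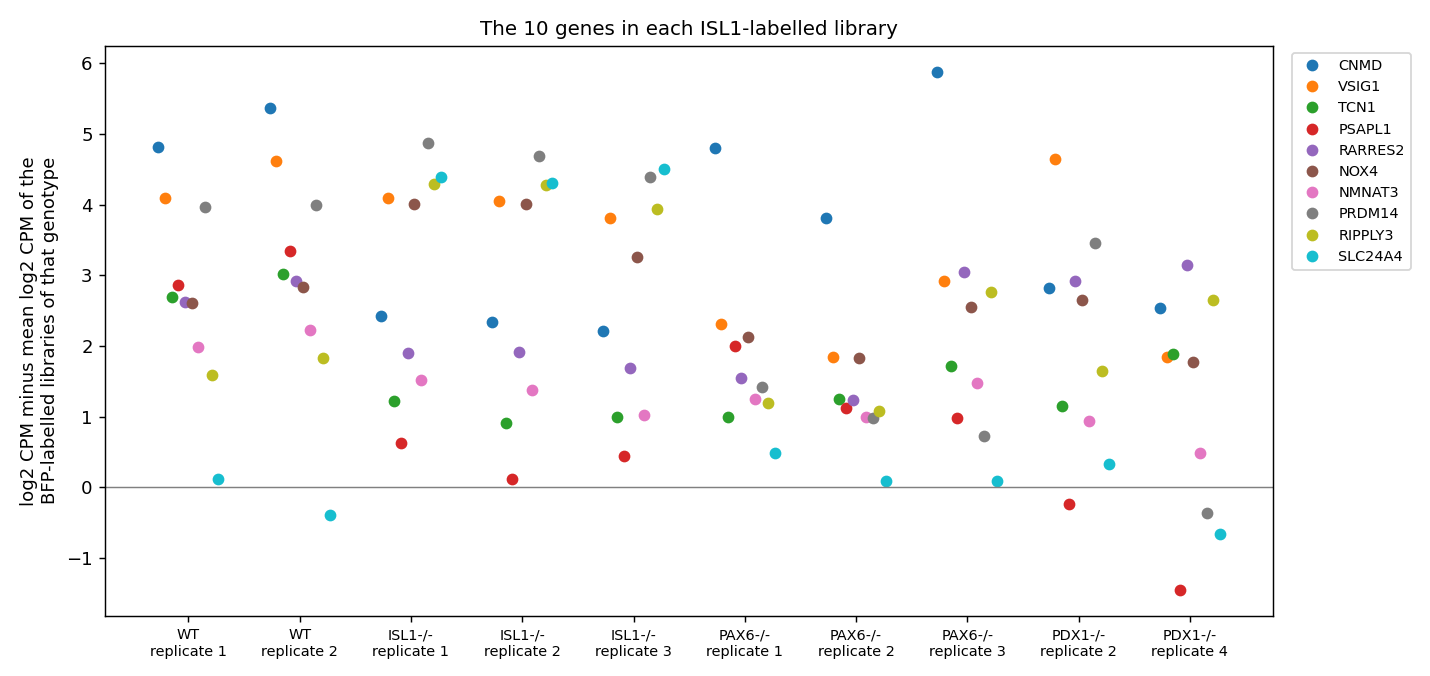
Log2 CPM of each gene in each of the 10 ISL1-labelled libraries minus the mean log2 CPM of the BFP-labelled libraries of its genotype. The 3 ISL1-/- libraries lie close together, while PDX1-/- replicates 2 and 4 differ most in PRDM14 and VSIG1.

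Single libraries stood apart in the knockouts. In PAX6-/-, ISL1-labelled replicate 3, 1 of the libraries with a high mitochondrial share, was the highest of the 3 for 7 of the 10 genes. In PDX1-/-, 9 genes were above all BFP-labelled libraries in replicate 2 and 7 in replicate 4, and 7 were higher in replicate 2 than in replicate 4. The shares over all genes were not counted for these single-library comparisons, so nothing is read from these counts in either knockout. Replicate 4 was the highest of all 21 libraries for the hormones INS (25612 CPM), GCG (106084 CPM) and SST (343 CPM), with 157417 CPM of islet markers in sum, and the lowest for the endocrine genes INSM1 (251 CPM), PCSK1 (18.6 CPM) and SYP (62.2 CPM). It also held 40185 CPM of 8 liver markers and 868 CPM of 8 intestine markers, against 9120 and 392 CPM in replicate 2 and at most 5517 and 304 CPM in the PDX1-/- BFP-labelled libraries. The sum of stomach markers was high in both, from different genes. SOX2 of this list went the other way in replicate 4, at 11.5 CPM against 33.5 to 49.1 CPM with BFP. In replicate 4, GAST (1286 CPM) made up most of a sum of 1369 CPM, while in replicate 2, where GAST was 13.3 CPM, TFF1 (55.9 CPM) and TFF2 (54.0 CPM) were the highest of all libraries in a sum of 166 CPM. The stomach genes GKN1, MUC5AC and PGC were at most 0.0889 CPM in any library. The part of these markers in the PDX1-/- values was not tested. Without both libraries of high mitochondrial share, the number of genes above without overlap was 9 in each of the 4 genotypes. The ISL1-labelled libraries left were then replicate 2 alone in PDX1-/- and replicates 1 and 2 in PAX6-/-. Fewer libraries separate more easily, and the share over all genes was not counted for this setting, so nothing is read from the change.

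Relatives and functional partners of the 10 genes formed a list of 62 genes, of which 58 were tested. In WT, 0 passed in edgeR (5 at an unadjusted p under 0.05, and 1 passed in DESeq2), where 0.0270% of all genes were called higher and 0% lower. In ISL1-/-, 1 rose (0.251% of all genes higher, 0.131% lower), and in PAX6-/- 2 rose (0.170% higher, 0.185% lower). In PDX1-/-, 11 rose and 2 fell, where 8.19% of all genes were called higher and 4.33% lower. The median log2 difference of the list was 0.06, 0.02, -0.13 and 0.04 in WT, ISL1-/-, PAX6-/- and PDX1-/-. VSIG2 and CBLIF were the only relatives called in more than 1 genotype. With the replicate number as a block, the number of all genes called was 578 in place of 92 in PAX6-/- and 483 in place of 99 in ISL1-/-. The relatives called were 3 in place of 2 in PAX6-/- and 4 in place of 1 in ISL1-/-.

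**Figure D4:**
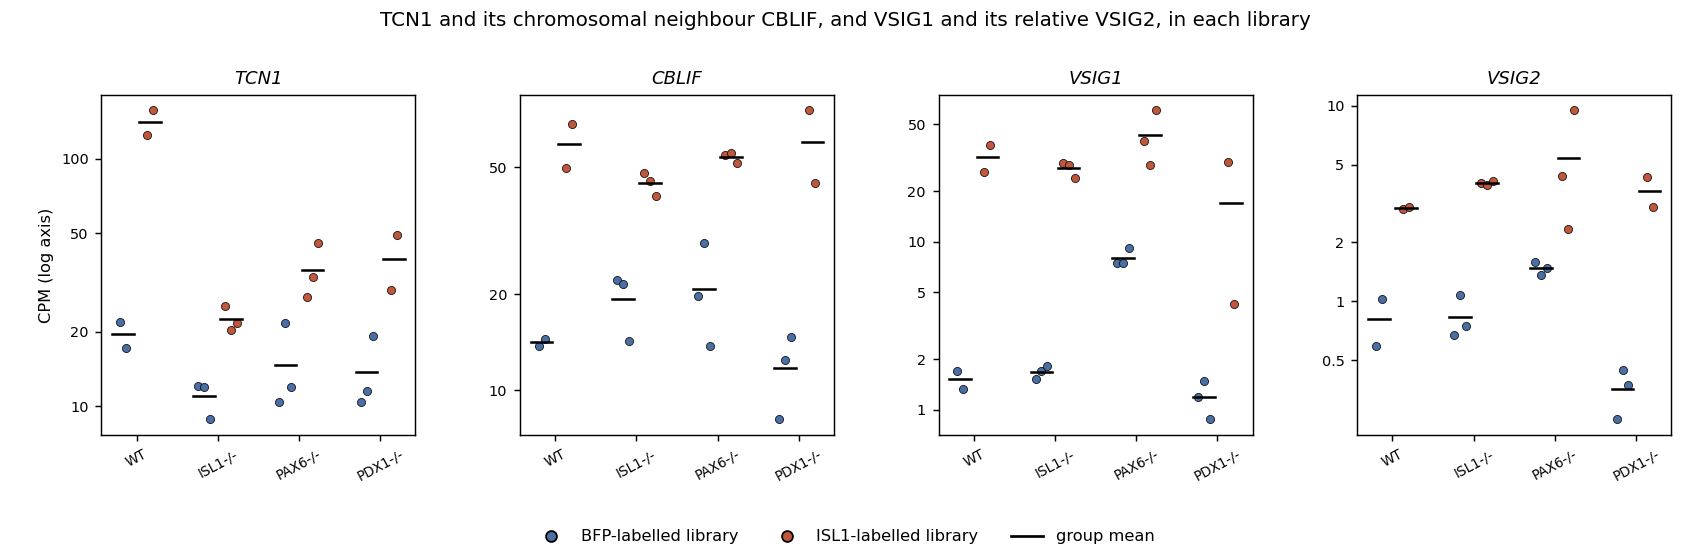
CPM (log axis) in each library of TCN1 with its chromosomal neighbour CBLIF and of VSIG1 with its relative VSIG2, with a bar at the group mean. In all 4 panels the ISL1-labelled libraries of each genotype lie above the BFP-labelled ones.

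VSIG2 encodes an adhesion protein of the same immunoglobulin family as VSIG1. Its mean was 0.811 CPM (SD 0.307, n = 2) with BFP and 3.01 CPM (SD 0.0439, n = 2) with ISL1 in WT, a log2 difference of 1.90 (SE 0.49, adjusted p = 0.447, edgeR). It rose in ISL1-/- from 0.831 ± 0.214 to 4.03 ± 0.101 CPM (SD, n = 3 each, log2 2.27, SE 0.40, adjusted p = 0.0141, edgeR). It also rose in PAX6-/- (log2 1.86, SE 0.39, adjusted p = 0.0459) and in PDX1-/- (log2 3.36, SE 0.45, adjusted p = 0.000303). Leaving out 1 library at a time moved the adjusted p of ISL1-/- between 0.0443 and 0.123, that of PAX6-/- between 0.00688 and 0.240, and that of PDX1-/- between 0.000258 and 0.00361, so only the PDX1-/- call held in every such fit. VSIG2 is described because it was called, and its ISL1-labelled libraries were above the BFP-labelled ones in all 4 genotypes.

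CBLIF encodes gastric intrinsic factor, which carries vitamin B12 to its receptor in the intestine after haptocorrin has released it. It lies next to TCN1 on the minus strand of chromosome 11, with 7.3 kb between the genes (CBLIF at chr11:59829273-59845499, TCN1 at chr11:59852800-59866489). Its mean was 14.1 CPM with BFP and 59.0 CPM with ISL1 in WT (log2 2.07, SE 0.35, adjusted p = 0.0525, edgeR). In ISL1-/- the means were 19.3 and 44.5 CPM (log2 1.20, SE 0.28, adjusted p = 0.0829). CBLIF rose in PAX6-/- from 20.8 to 53.7 CPM (log2 1.37, SE 0.28, adjusted p = 0.0432) and in PDX1-/- from 11.7 to 59.8 CPM (log2 2.35, SE 0.31, adjusted p = 0.000290). Leaving out 1 library at a time gave PAX6-/- an adjusted p from 0.0265 to 0.295, and PDX1-/- one from 0.000177 to 0.00299. No BFP-labelled library of CBLIF was above 28.9 CPM and no ISL1-labelled one was under 40.6 CPM, so the vector labels were separated across genotypes as well as within them.

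In PDX1-/-, 9 of the 13 calls among the relatives were lost without ISL1-labelled replicate 4, and CBLIF, VSIG2, TLE4 and CLDN18 kept theirs. With only the 5 PDX1-/- libraries in the fit, 0 genes of all were called by the vector, so none of these calls held. The same fit of the PAX6-/- libraries also called 0 genes, so the PAX6-/- calls of VSIG2 and CBLIF did not hold there either. TLE4, a co-repressor of the kind RIPPLY proteins recruit, was 14.9, 12.6 and 11.6 CPM with BFP and 24.4 and 55.5 CPM with ISL1 and rose (log2 1.62, SE 0.26, adjusted p = 0.00114, edgeR), with an adjusted p of 0.256 in that smaller fit. CLDN18, a tight junction protein of stomach and lung, was called (log2 2.46, SE 0.69, adjusted p = 0.0284) on 1 library: it was 20.2, 25.7 and 37.7 CPM with BFP, 291 CPM in ISL1-labelled replicate 2 and 15.5 CPM, under all BFP-labelled libraries, in replicate 4. Its log2 difference was -0.86 without replicate 2, and leaving out any 1 of the BFP-labelled libraries ended the call (adjusted p from 0.0633 to 0.0920). The calls that rested on replicate 4 included CYBA, the partner of NOX4 (log2 1.83, SE 0.37, adjusted p = 0.00533), PLAAT4, a retinoid-responsive gene like RARRES2 (log2 4.25, SE 0.69, adjusted p = 0.00131), AMN, a subunit of the intrinsic factor receptor (log2 2.75, SE 0.53, adjusted p = 0.00381), and NMNAT1, the nuclear counterpart of NMNAT3 (log2 1.14, SE 0.31, adjusted p = 0.0264). RIPPLY1, CCRL2, a chemerin receptor, MMUT, which uses vitamin B12, and the sodium-calcium exchanger SLC8A1 were also among them, the last 2 lower with ISL1 (log2 -0.86, SE 0.25, and -1.86, SE 0.48). The closest relatives of several members were not called in any genotype, among them PSAP, NOX1, NMNAT2, PRDM1, RIPPLY2 and SLC24A3. Of 14 genes of the ISL1 complex, 1 was called in ISL1-/-, where LMO2 rose (log2 2.16, SE 0.42, adjusted p = 0.0277, with 0.251% of all genes called higher). In PDX1-/- 4 were called higher, beside 8.19% of all genes: LMO1, LMO2, LMO4 and LHX1. Their ISL1-labelled libraries were far apart, with LMO1 at 3.17 and 13.4 CPM, LMO2 at 9.05 and 37.9, LMO4 at 44.8 and 113, and LHX1 at 0.688 and 6.76 CPM in replicates 2 and 4, so replicate 4 was the higher library for all 4.

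Of 74 other genes within 100 kb of a member, 35 were tested. In edgeR 0 passed in WT, where 0.0270% of all genes did, and 0 in ISL1-/-, where 0.382% did (1 and 2 at an unadjusted p under 0.05). CBLIF alone passed in PAX6-/-, 2.86% of the 35 beside 0.355% of all genes. In PDX1-/- 6 passed, 17.1% beside 12.5% of all genes: CBLIF, MRPL16, COPB2-DT and RBP2 rose while SORCS2 and ZNF775 fell. COPB2-DT overlaps NMNAT3 on the opposite strand (log2 1.56 in PDX1-/-, SE 0.30, adjusted p = 0.00438) and was at -0.09 in WT, where NMNAT3 was at 2.10. SORCS2 fell there (log2 -2.32, SE 0.61, adjusted p = 0.0218). Without ISL1-labelled replicate 4 the calls of MRPL16, COPB2-DT, RBP2, SORCS2 and ZNF775 were lost.

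Likeness was measured as Pearson's r of log2 CPM over all 21 libraries, which share their vector and genotype groups, and is given as a description. VSIG1 and PRDM14 were each other's closest gene of the 25884 (r = 0.942), and so were NOX4 and RIPPLY3 (r = 0.929). NMNAT3 was closest to NOX4 (r = 0.918) and RARRES2 to BMPR1B-DT (r = 0.979), with VSIG2 next (r = 0.954). VSIG1 was followed by COL19A1 (0.935) and MEIS2 (0.932), and PRDM14 by NKAIN2 (0.925) and SLC4A4 (0.924). RIPPLY3 was followed by LRRC36 (0.917) and UNC5C (0.889), NOX4 by RASSF9 (0.927), and NMNAT3 by CAST (0.906). TCN1 had DDB2 (0.880) and CD9 (0.868) among its closest 3, PSAPL1 had LBX1-AS1 (0.816), and CNMD had the pseudogene RPL37P15 (0.840). SLC24A4 stood with another set of genes, C3orf80 (0.889), the zinc transporter gene SLC30A8 (0.852), known from the insulin granules of beta cells, and BCKDHB (0.850). The median r with the other 9 genes was 0.31 for PSAPL1 and 0.35 for SLC24A4, and from 0.63 to 0.84 for the other 8.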

How the data were processed

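RNA of sorted BFP-positive cells was made into libraries with SMART-Seq v4 and KAPA EvoPrep, per the labels' protocols. The authors deposited a table of raw counts per gene with exon coordinates and length, in the layout of featureCounts, per the file headers; STAR 2.7.11b, featureCounts 2.1.1 and the build GRCh38 are named in the submitters' processing notes without their roles. Whether strand was used, how multi-mapped reads were handled and which annotation release was taken are not given in the sources used here. Of 62700 genes, 62699 were used, since the entry of 1 is broken, and symbols came from a separate name table. SMART-Seq v4 counts reads without molecular identifiers, so replicate spread and not counting error is the basis of every error given.

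Groups came from the labels, and replicate numbers from the sample descriptions. Counts were fitted with edgeR 4.0.16 in R 4.3.3 (quasi-likelihood test, TMM scaling, filterByExpr minimum count 10 and total 15, prior count 0.125) in a single model of all 21 libraries with no block. This left 25884 genes, with a common biological coefficient of variation of 0.334. Each comparison had its own Benjamini-Hochberg adjustment, with a threshold of 0.05. SE is the absolute log2 fold change over the root of the F statistic. CPM is the count over the TMM library size, and a prior count of 2 entered log2 CPM. On simulated counts of the 25884 genes in the ISL1-/- vector comparison, the fit called 82% of 100 genes changed by a log2 of 2. It called 100% of 100 genes changed by a log2 of 4, with 10 unchanged genes called. The simulated counts had a single common dispersion for all genes and no library that stood apart. Whether these shares hold for the measured libraries was not tested. There the same comparison called 99 genes, and 1345 without both libraries of high mitochondrial share. No libraries of a group agreed within sampling noise (lowest chi-square per degree of freedom 13.8).

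The members, the lists of relatives and markers and the tests were chosen with earlier results of these data known. Genotype tests of the members within BFP had been planned where a genotype was not used for the choice, and are given without p-values because all genotypes entered it. Named genes are the 10 members, the 3 genes most like each, up to 12 called relatives by p-value, ISL1, called genes within 100 kb of a member, and genes of whole lists. Same-numbered libraries deviated together in part, with correlations of 0.15, 0.39 and 0.33 in PAX6-/- and of 0.18, 0.099 and 0.29 in ISL1-/-. Alternatives were DESeq2 1.42.0, its size factors, no filter, the replicate block, prior count 2, only the groups compared, both libraries of high mitochondrial share left out, and each library left out in turn.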

Additional observations from a re-analysis of the deposited data

Results flagged for a closer look

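The vector effect of PSAPL1 went in opposite directions between genotypes. In PDX1-/- both ISL1-labelled libraries were under all 3 BFP-labelled ones (log2 -0.72), while every ISL1-labelled library was above every BFP-labelled one in WT (log2 3.14) and in PAX6-/- (log2 1.36). Most of the PDX1-/- shift lay in replicate 4, 1 of the libraries with a high mitochondrial share. Against the mean log2 CPM of the BFP-labelled libraries, it was -1.45 in replicate 4 and -0.24 in replicate 2. With the replicate number as a block the PDX1-/- log2 difference was -0.20. The effect in PDX1-/- was lower than that in WT by a log2 difference of -3.86 (SE 0.65), and the effect in PAX6-/- minus that in PDX1-/- was 2.08 (SE 0.58). The difference was not tested, since these libraries entered the choice of the gene. Its overlap with SORCS2 on the other strand applies here as well.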

How the results depend on the processing

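The number of the 10 genes with no overlap between the vector groups kept within 1.5 times its value in all 29 alternatives, from 7 to 10 genes, and leaving out 1 library at a time gave 9 to 10 in WT, 9 to 10 in ISL1-/-, 9 to 10 in PAX6-/- and 7 to 9 in PDX1-/-. Groups with fewer libraries separate more easily, and the share over all genes was not counted under these alternatives. Of 490 alternative values of the vector effect of a member, 472 moved by less than the spread between replicates and 17 by more. Changes of sign of SLC24A4, which was near 0 outside ISL1-/-, are among these. Its WT value, -0.11 with all libraries, was 0.12 without ISL1-labelled replicate 2. Its PAX6-/- value of 0.05 became -0.27 without BFP-labelled replicate 3. The replicate block gave it 0.47 in place of -0.08 in PDX1-/-. The 1 value left was a larger change of sign. PRDM14 in PDX1-/- was -0.50 without ISL1-labelled replicate 2 and 3.36 without replicate 4. The lone library left is there assumed to vary like the other groups. CLDN18 in PDX1-/- changed sign under the same alternative (log2 -0.86, adjusted p = 0.196 in edgeR, against 3.39 without replicate 4). Of 690 alternative values of the 60 genotype differences of members within BFP, 15 changed sign, none for a difference over 0.149 with all libraries.

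Counts over all genes depended on the fit. In the order WT, ISL1-/-, PAX6-/- and PDX1-/-, 7, 99, 92 and 3240 genes were called by the vector and 0, 1, 2 and 13 relatives. Between genotypes with BFP, in the order ISL1-/-, PAX6-/- and PDX1-/- against WT, ISL1-/- against PAX6-/- and against PDX1-/-, and PAX6-/- against PDX1-/-, 1448, 1425, 2506, 636, 1313 and 787 genes were called. Size factors of DESeq2 in edgeR kept all of these within 1.5 times. Without a filter on low counts the vector counts were 23, 155, 118 and 2822 genes and 1, 1, 2 and 15 relatives. With the replicate block they were 49, 483, 578 and 541 genes and 1, 4, 3 and 3 relatives, and the genotype counts were 3150, 3358, 4594, 1271, 2983 and 1988. The deviations of same-numbered libraries correlated at 0.15, 0.39 and 0.33 in PAX6-/- and at 0.18, 0.099 and 0.29 in ISL1-/-. In WT and PDX1-/-, with 1 pair each, they correlated at -0.04 and -0.21. With the block TLE4 in PDX1-/- was at a log2 of 0.87 (adjusted p = 0.0611, edgeR). With only the groups compared in the fit, the counts were 316, 1461, 0 and 0 genes, 4, 9, 0 and 0 relatives and, between genotypes, 5846, 4899, 6717, 1613, 5338 and 3074. DESeq2 gave 63, 379, 463 and 4891 genes, 1, 3, 3 and 21 relatives and 2431, 2455, 3510, 1066, 2267 and 1526. Without both libraries of high mitochondrial share the counts were 359, 1345, 1357 and 2435 genes, 3, 8, 8 and 10 relatives and 6417, 6423, 7544, 2385, 5930 and 4447. An alternative added after seeing the data kept the other genotypes in view when 1 such library was left out of the shared fit: without PAX6-/- replicate 3 the vector counts were 27 in WT, 227 in ISL1-/- and 5949 in PDX1-/-, and without PDX1-/- replicate 4 they were 52 in WT, 364 in ISL1-/- and 513 in PAX6-/-. Leaving out 1 library of a comparison gave 0 to 5, 14 to 55, 13 to 126 and 665 to 11519 genes by the vector, 0 to 0, 0 to 1, 0 to 1 and 5 to 31 relatives, and 459 to 883, 276 to 997, 736 to 1714, 351 to 525, 528 to 904 and 343 to 510 genes between genotypes. The cause of these shifts was not tested. The depth of 36.8 to 60.2 M counts leaves the smallest members, SLC24A4 in ISL1-/- with BFP (15 to 19 counts) and CNMD in WT with BFP (12 counts each), with the least precise values.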
